A study of Mus musculus with 40 samples.

Results

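Cultured mouse mast cells that had been kept for 48 h with NS102 at 50 uM were compared with the same kind of culture kept for 48 h with vehicle. The 8 libraries, 4 per group, were chosen by their labels alone, out of 40 libraries in the series. The cells were peritoneal-derived mast cells of strain C57BL/6J, that is, mast cells grown out from the peritoneal cavity. The labels name neither the vehicle nor a genotype beyond the strain, and nothing in them says that the 4 replicates of a group came from separate cultures or animals, so p-values measure the spread between these libraries, which may be technical. The series as a whole concerns skin neurons that bear the receptor MrgprD and the mast cells near them, and holds ear skin, sorted skin mast cells and the cultured cells. A further pair of cultured groups, kept for 6 h in Tyrode's buffer lacking glutamate with 4 mM glutamate or its vehicle (4 libraries each), is used below only to ask where the change with NS102 differs from the change with another treatment of such cells.

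NS102 is described in the design text as an antagonist of glutamate receptors, and is known as a blocker of kainate receptors, the class of glutamate-gated ion channels built from the GRIK subunits. Mast cells are tissue-resident immune cells whose granules store histamine, serotonin, heparin and proteases. After IgE receptors are cross-linked or Mas-related receptors are engaged, they empty these granules, make lipid mediators and switch on chemokine and cytokine genes. Expression is given in FPKM, fragments scaled to transcript length and depth, so that a systematic trend of change with length has to be looked for before single genes are read.

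The cells carried a mast cell profile in both groups. The high-affinity IgE receptor chain Fcer1a was at 5939 ± 435 FPKM with NS102 and 8266 ± 238 FPKM with vehicle (SD, n = 4 each, as throughout), the stem cell factor receptor Kit at 416 ± 28.4 and 257 ± 32.1 FPKM, and carboxypeptidase Cpa3 at 11774 ± 1111 and 13113 ± 585 FPKM. The summed markers of each of keratinocytes, fibroblasts and neutrophils reached at most 0.0869 FPKM in any NS102 library and 0.51 FPKM in any vehicle library. Dendritic cell markers summed to 11.4 to 15.7 FPKM with NS102 and 14.5 to 21.9 FPKM with vehicle. Mesothelial markers summed to 9.76 to 12 and 13.1 to 15.8 FPKM, and red blood cell markers to 1.86 to 3.38 and 5.37 to 6.81 FPKM. Basophil markers summed to 565 to 630 and 583 to 634 FPKM, most of it from Cd200r3 at 557 ± 30.6 and 582 ± 23.3 FPKM. Other basophil markers moved in different directions. Mcpt8 was higher, at 4.43 ± 0.62 FPKM with NS102 and 2.71 ± 0.816 FPKM with vehicle, as was Il3ra, at 20.9 ± 0.711 and 15.3 ± 1 FPKM. Prss34 was lower, at 11.1 ± 0.595 and 15.6 ± 1.68 FPKM. Eosinophil, B cell and T cell markers each reached at most 2.53 and 2.59 FPKM. Of 14 macrophage markers in the table, 2 passed the filter on low values (1 FPKM in 4 libraries) and moved in opposite directions, with Cd68 higher at 11.2 ± 0.729 FPKM with NS102 against 3.78 ± 0.672 FPKM with vehicle, and Lyz2 lower at 8.67 ± 2.07 against 23.5 ± 8.14 FPKM. Among 7 endothelial markers, the clotting protein gene Vwf and the adhesion molecule gene Pecam1 were higher. Tek, which also passed the filter, was not called, at 1.44 ± 0.197 FPKM with NS102 and 1.51 ± 0.337 FPKM with vehicle. The summed level of the 7 was 41.5 to 49.1 FPKM with NS102 and 22.7 to 27.2 FPKM with vehicle. Of the 7, 3 were listed at 0 in all 8 libraries, Cdh5 and Kdr among them. The part of other cell types in the results was not tested. The kainate receptor subunit genes themselves were near the bottom of the scale. Grik1, Grik3 and Grik4 were listed at 0 in all 8 libraries. Grik2 had 0.121, 0.24, 0.153 and 0.156 FPKM with NS102, against 0.126, 0.265, 0.0982 and 0.118 FPKM with vehicle, and Grik5 was at most at 0.126 FPKM in any library. The groups overlapped for both, and neither gene passed the filter. Of the 20 ionotropic glutamate receptor and auxiliary subunit genes listed, Grin2c, an NMDA receptor subunit gene, was the only one that passed, at 10.3 ± 1.04 FPKM with NS102 and 5.87 ± 0.35 FPKM with vehicle.

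The 4 NS102 libraries stood in 2 pairs. Over the tested genes, libraries 1 and 2 correlated at r = 0.9977 and libraries 3 and 4 at 0.997, against 0.9918 to 0.9928 across the pairs. The vehicle libraries correlated at 0.9949 to 0.9977 with each other, and NS102 with vehicle libraries at 0.9375 to 0.9657. What sets the pairs apart is not given in the sources used here. Summed FPKM was 355726 to 383561 with NS102 and 397388 to 413602 with vehicle.

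NS102 cultures differed from vehicle cultures in most of the expressed genes. The filter left 8373 genes, of which 5902 (70.5%) passed limma's test at an adjusted p of 0.05 (Benjamini-Hochberg), 2579 higher (30.8%) and 3323 lower (39.7%) with NS102. Most changes were small, with a median size of 0.462 among the called genes on the log2(FPKM + 1) scale, which understates the change of genes near or under 1 FPKM. Changes of at least 1 on this scale were found in 397 higher (4.74%) and 233 lower genes (2.78%). The spread between replicates was smaller still, with a median SD of 0.103 over the NS102 and 0.0971 over the vehicle libraries. After length correction, described below, changes of this size were found in 360 higher (4.33%) and 123 lower genes (1.48%). In 64.4% of the tested genes the 2 groups did not overlap, 27.4% with every NS102 library above and 36.9% with every NS102 library below the vehicle libraries. Without NS102 libraries 1 and 2, 5556 of 7953 genes were called, and without libraries 3 and 4, 4943 of 7938, with the higher calls then at 1738.

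The direction of change followed transcript length. Genes were ordered by the length of their longest annotated transcript (8308 tested genes with a length) and cut into 10 bins of about equal size. In the shortest bin, of 143 to 1144 bases, the median log2 change was -0.48, and 9.03% of the genes were higher and 75.1% lower with NS102. In the longest bin, from 5640 bases upward, the median was 0.25, with 53.1% higher and 17.4% lower. The median over all tested genes was -0.06. The bins in between lay in order of length without a break, crossing 0 between the bin of 2800 to 3237 bases (median -0.02) and the bin of 3238 to 3785 bases (median 0.03).

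**Figure D1:**
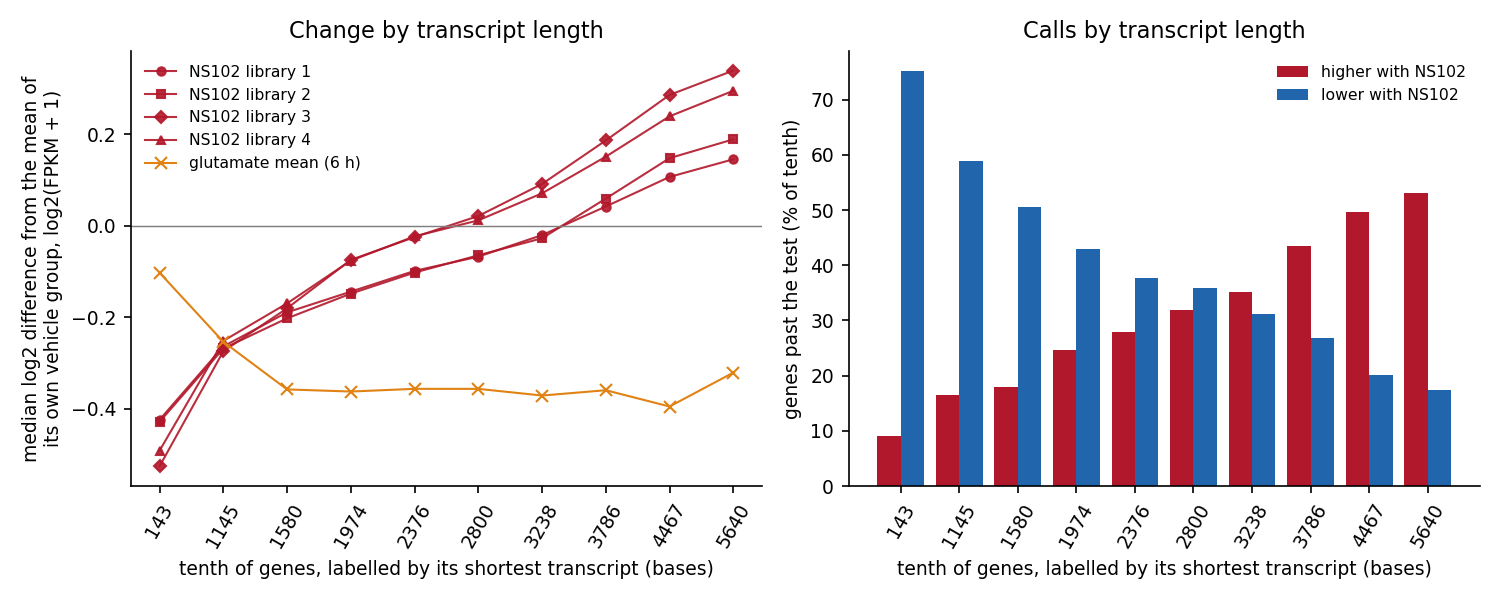
Left, median difference from the mean of the matching vehicle group in log2(FPKM + 1) (y) for 10 bins of genes by transcript length (x, labelled by the shortest transcript of each bin in bases), 1 red line per NS102 library and 1 orange line for the mean of the 4 glutamate libraries. Right, share of each bin past the test and higher (red) or lower (blue) with NS102, where the share of higher genes is 9.03% in the shortest and 53.1% in the longest bin.

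Each NS102 library showed the trend by itself. Relative to the vehicle mean, the shortest bin had medians of -0.42, -0.43, -0.52 and -0.49 in NS102 libraries 1 to 4, and the longest bin 0.15, 0.19, 0.34 and 0.29. The trend was therefore steeper in libraries 3 and 4 than in libraries 1 and 2, and the difference between those pairs itself ran with length, at -0.12 in the shortest and 0.15 in the longest bin. Within the vehicle group, library 1 minus the mean of the other 3 also ran with length, at -0.06 in the shortest and 0.12 in the longest bin. Length-linked spread thus existed among replicates of both groups, at a smaller size than the difference between the groups.

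A single slope per library gave the test of the trend. The least-squares slope of log2(FPKM + 1) on log2 transcript length over the same 8308 genes was -0.83, -0.82, -0.72 and -0.75 with NS102, against -0.99, -1.05, -1.05 and -1.05 with vehicle. Longer transcripts had lower FPKM in every library, and less so in all 4 NS102 libraries than in any vehicle library. The means were -0.78 ± 0.0543 with NS102 and -1.03 ± 0.0278 with vehicle, a difference of 0.25 (exact permutation test over libraries, two-sided, p = 0.0286, the smallest that 4 against 4 libraries can give). With NS102 libraries 3 and 4 alone the difference was 0.27, and with libraries 1 and 2 alone 0.19, where the smallest possible p is 0.0667.

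**Figure D2:**
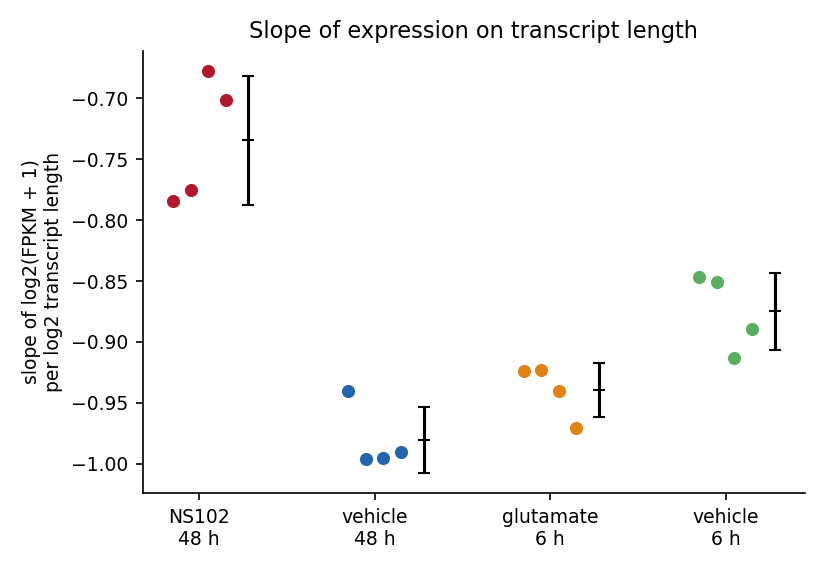
Slope of log2(FPKM + 1) per unit of log2 transcript length (y) in each of 16 cultured mast cell libraries (points) over 8825 genes, with mean ± SD beside each group (bars). The NS102 libraries lie above the 48 h vehicle libraries, while the glutamate libraries lie below the 6 h vehicle libraries.

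The rank correlation was higher for coding length than for transcript length. Across genes, Spearman's coefficient between log2 change and length was 0.411 for the whole transcript (n = 8308 genes) and 0.503 for the coding sequence (n = 8135), but 0.171 for the noncoding remainder of coding transcripts. It was 0.351 for the number of exons and 0.288 for the genomic span. These are descriptions across genes, which are not independent replicates and which share the same 8 libraries. With the genes cut into 5 broader bins by length, those of the longest bin with 16 or more exons had a median log2 change of 0.45 (693 genes), whereas those with 2 to 5 exons had -0.02 (265 genes). In the shortest of the 5 bins, the 112 single-exon genes stood at -0.21 and the 889 genes with 2 to 5 exons at -0.39.

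Length also goes with expression level and base composition, and their part in the trend was not separated by the design. Spearman's coefficient between log2 change and mean expression was -0.295, and with GC content 0.167. With the genes cut into 4 equal groups by mean expression the length trend was present in each, with coefficients of 0.372, 0.332, 0.266 and 0.391 in order of rising expression. In the lowest group (means of 0.507 to 2.56 FPKM) the median log2 change was -0.16 in the shortest and 0.31 in the longest of the 5 length bins. In the highest group (means of 18.7 FPKM and above) it was -0.45 and 0.12. Length alone took up 15.8% of the variance of the log2 change across genes, and length, exons, GC content and expression together 25.1%. RNA integrity, fragment size and depth are not given in the sources used here, and their part in the trend was not tested.

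To see which calls rest on the trend, a smooth curve on length was fitted to the deviations of each library from the gene means. This curve was removed from the library and the test repeated. This left 5872 of 8308 genes called (70.7%), 2892 higher (34.8%) and 2980 lower (35.9%), so about as many genes as before but more evenly split. Of 2566 genes with a length that were higher as measured, 2249 remained higher and 3 turned lower. Of 3295 lower genes, 2515 remained lower, 677 lost the call and 103 turned higher. A further 540 genes were called higher and 462 lower only after the correction. This correction takes out any real change shared by short or by long transcripts as well. Below, the values as measured and after correction are given together for some genes and lists only. Where the corrected value is not given, it may still differ from the value as measured.

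**Figure D3:**
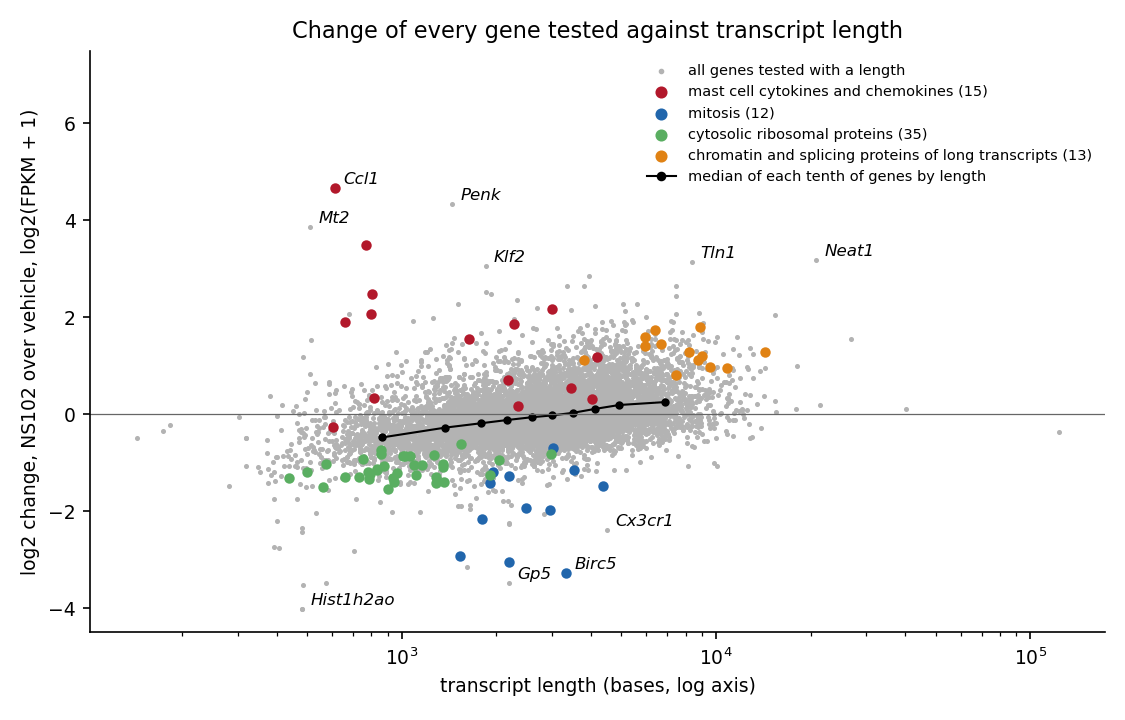
Log2 change of each tested gene, NS102 over vehicle (y), against transcript length in bases (x, log axis), with 4 gene lists in colour and the median of each of 10 length bins in black. Ccl1 and Mt2 lie far above the median of the bins of their length.

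The 4 largest increases, of Ccl1, Penk, Mt2 and Ccl3, were in the shortest of the 5 length bins, against the trend, while others of the largest increases were in longer transcripts. Ccl1, a chemokine of mast cells and T cells that acts on the receptor CCR8, had 251, 291, 243 and 236 FPKM with NS102, against 10.8, 10.6, 5.71 and 10.1 FPKM with vehicle. Every NS102 library was far above every vehicle library, a log2 change of 4.67 ± 0.151 (SE; limma adjusted p = 4.7e-10) for a transcript of 611 bases. Ccl3, an inflammatory chemokine, had 24.6, 28.6, 30.5 and 26.8 FPKM with NS102 and 1.44, 1.12, 1.38 and 2.32 FPKM with vehicle. Ccl7, a monocyte attractant, averaged 133 ± 14.3 FPKM with NS102 and 23 ± 0.988 FPKM with vehicle, and Osm, oncostatin M, 64 ± 5.35 and 16.8 ± 0.666 FPKM. Neither pair of groups overlapped. Of the 21 mast cell cytokine and chemokine genes listed, 15 passed the filter, 2 of them only through the NS102 libraries. Of the 13 that passed through both groups, 12 rose and 1 fell, against 30.8% and 39.7% of all tested genes. Their median log2 change was 1.19, and -0.07 over all genes that passed through both groups. The summed level of all 21 was 1017 to 1162 FPKM with NS102 and 497 to 532 FPKM with vehicle. Length correction raised the change of Ccl1 to 5.25 and of Ccl3 to 3.99.

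Other strong increases concerned a neuropeptide and transcription factors. Penk, which encodes the opioid peptide precursor proenkephalin, had 44.7, 43.5, 34.8 and 44.3 FPKM with NS102, against 0.498, 1.61, 1.74 and 0.844 FPKM with vehicle. Its log2 change was 4.34 ± 0.167 (limma adjusted p = 1.7e-09), with the vehicle libraries at or near the filter limit. Klf2, a transcription factor tied to quiescence in lymphocytes, was at 50.7 ± 2.1 FPKM with NS102 and 5.24 ± 0.841 FPKM with vehicle. Cebpb, a basic leucine zipper factor, was at 12.5 ± 1.4 and 2.1 ± 1.38 FPKM, where vehicle library 1 was as low as 0.257 FPKM. Among 16 immediate early and feedback genes that passed the filter through both groups, 13 rose and 1 fell, against 30.8% and 39.7% of all tested genes, with a median log2 change of 0.44. Junb, a subunit of the AP-1 factor, was at 59.8 ± 5.44 FPKM with NS102 and 23.4 ± 1.85 FPKM with vehicle, and Egr2, a zinc finger factor, at 2.05 ± 0.195 and 0.354 ± 0.0346 FPKM, having passed the filter only through the NS102 libraries.

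**Figure D4:**
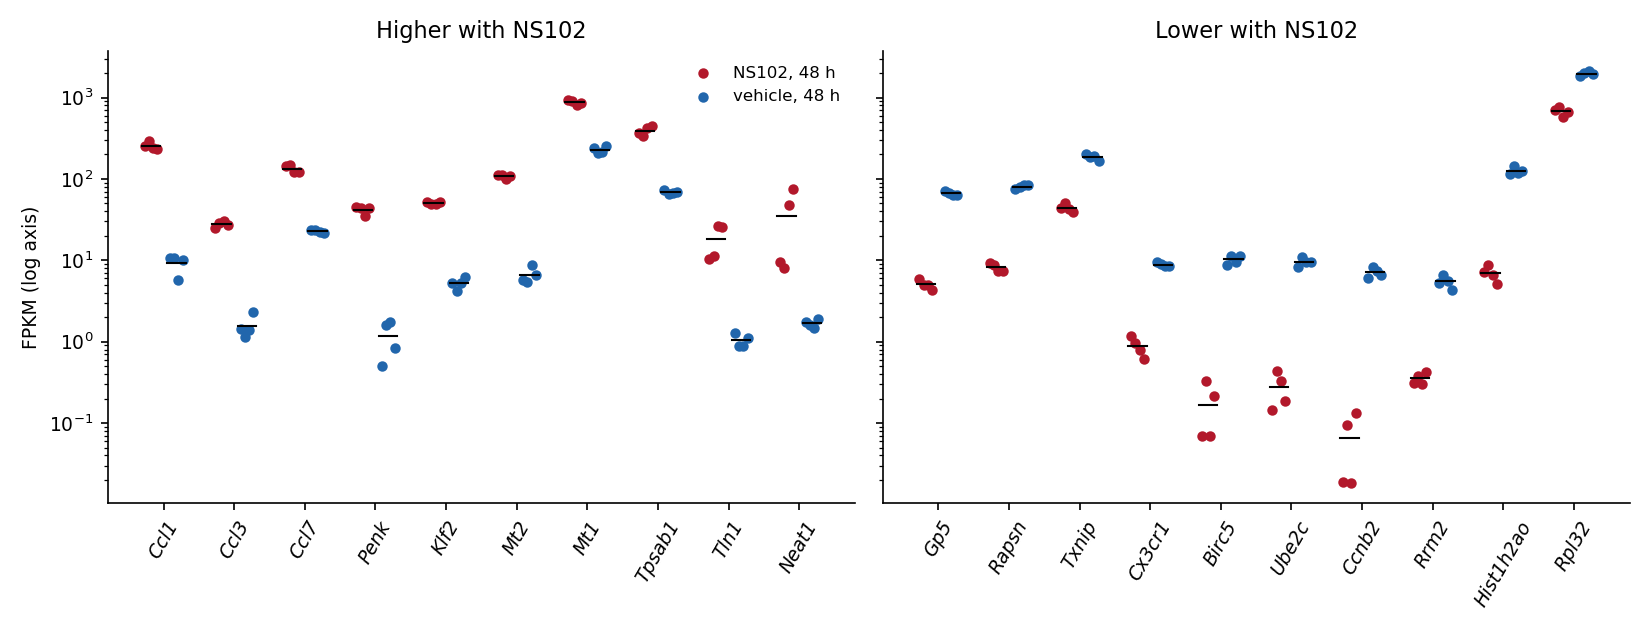
FPKM (y, log axis) of 20 named genes in each of the 4 NS102 libraries (red, left of each pair) and 4 vehicle libraries (blue, right), with a black line at each group mean. No gene shown has overlapping groups, and Tln1 and Neat1 separate the NS102 libraries into a lower and a higher pair.

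Granule protease messages were mostly higher. Of 11 tested protease genes, with a median transcript length of 1108 bases, 8 rose and Mcpt2 fell, against 30.8% and 39.7% of all tested genes that rose and fell. Their median log2 change was 0.57 as measured and 1.03 after length correction. The genes that rose include Mcpt8, also used above as a basophil marker, whose change is the measured median. Tpsab1, a tryptase, had 363, 337, 420 and 449 FPKM with NS102, against 73.3, 64.9, 67.5 and 70 FPKM with vehicle, the largest change of the list at 2.48 ± 0.083 (limma adjusted p = 6.1e-10). Gzmb, granzyme B, was at 567 ± 40.1 FPKM with NS102 and 223 ± 10.4 FPKM with vehicle, and Tpsg1, a membrane-anchored tryptase, at 556 ± 38 and 226 ± 8.31 FPKM. The chymases changed less, with Mcpt4 at 337 ± 36.9 and 210 ± 8.58 FPKM and Cma1 at 18337 ± 900 and 12572 ± 518 FPKM. Tpsb2, the most abundant tryptase, had 43436, 42387, 37394 and 34779 FPKM with NS102 and 32642, 32008, 32528 and 31858 FPKM with vehicle. Its change of 0.29 ± 0.107 passed the test narrowly (limma adjusted p = 0.030) and no longer did so without NS102 library 1 (0.0942) or without any 1 of the vehicle libraries (0.067 to 0.108), with the replicate number as a block (0.14), with median centring (0.221), without a filter (0.398) or after quantile normalization (1.0). After length correction the change of Tpsb2, with a transcript of 1289 bases, was 0.59 and passed (limma adjusted p = 2.6e-05). Cpa3 did not pass, with 11493, 13335, 11563 and 10706 FPKM with NS102 against 13410, 12833, 13760 and 12449 FPKM with vehicle (adjusted p = 0.13), and its sign turned after length correction (0.09). It passed as lower without NS102 library 2 (0.0299), without NS102 libraries 1 and 2 (0.00223), after quantile normalization (0.005) and with the spread shared over 16 libraries (0.0272). Tryptase genes are close relatives, so reads may have been divided between them by the counting.

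Genes for the synthesis and release of amines and for IgE signalling changed as well. Hdc, the histamine-making decarboxylase, had 47.6, 48.9, 50.5 and 47.4 FPKM with NS102, against 25.7, 21.3, 22.7 and 18.7 FPKM with vehicle. Tph1, the rate-limiting enzyme of serotonin synthesis outside the brain, rose to 1098 ± 18.2 FPKM with NS102, against 725 ± 23.7 FPKM with vehicle, whereas Slc18a2, which loads amines into granules, fell to 166 ± 4.39 FPKM, against 239 ± 22.1 FPKM. Of 18 tested genes of IgE receptor signalling, 15 rose and none fell, against 30.8% and 39.7% of all tested genes that rose and fell, with a median log2 change of 0.56 as measured and 0.60 after length correction. Pik3cd, the catalytic subunit of phosphoinositide 3-kinase delta, had 47.5, 48.1, 69.7 and 65.1 FPKM with NS102 and 24.9, 20.1, 18.8 and 20 FPKM with vehicle. Inpp5d, the phosphatase SHIP-1 that opposes it, had 38.8, 40.5, 53.9 and 52.6 FPKM with NS102 and 23, 15.9, 16.3 and 16.9 FPKM with vehicle. The adaptor Gab2 had 7.03, 7.07, 9.79 and 9.42 FPKM with NS102, against 2.9, 2.29, 2.36 and 2.64 FPKM with vehicle, and the kinase Prkcd 44.1, 42.7, 60.8 and 62.9 FPKM, against 25.6, 19.5, 21.2 and 23.2 FPKM. In these 4 genes, NS102 libraries 3 and 4 were higher than libraries 1 and 2. All 4 have transcripts of 2851 to 6168 bases, and the changes after length correction were 1.14 to 1.22.

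Of 17 receptor and transcription factor genes that passed the filter through both groups, 8 rose and 6 fell, against 30.8% and 39.7% of all tested genes, and nothing is read from this count. Kit had 392, 394, 450 and 429 FPKM with NS102, against 304, 242, 245 and 236 FPKM with vehicle, without overlap (log2 change 0.70 ± 0.081, limma adjusted p = 9.5e-06). Mrgprb2, the Mas-related receptor through which basic secretagogues act on mouse mast cells, was higher in all 4 NS102 libraries, at 36.9 ± 1.26 FPKM, than in the vehicle libraries, at 24.1 ± 1.71 FPKM. The histamine receptor Hrh4 was lower, at 17.1 ± 1.82 FPKM with NS102 and 39 ± 2.31 FPKM with vehicle. Fcer1a was lower as measured, at -0.48 ± 0.077, but its transcript is 998 bases long and after length correction the change was -0.08 and did not pass (adjusted p = 0.17). Of 9 tested genes of lipid mediator synthesis, 2 rose and 6 fell, against the same shares of all tested genes. Ltc4s, leukotriene C4 synthase, was at 17.1 ± 1.43 FPKM with NS102 and 36.5 ± 1.71 FPKM with vehicle, a log2 change of -1.05 for a transcript of 649 bases that length correction brought to -0.49. Ptgs1, the constitutive cyclooxygenase, was at 23.5 ± 0.261 and 33.7 ± 2.26 FPKM, a change of -0.50 that the correction left at -0.47.

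Among the largest decreases were those of 2 surface or membrane-linked proteins and of genes of cell division. Gp5, a platelet glycoprotein, had 5.9, 4.95, 5.04 and 4.36 FPKM with NS102, against 71, 66.3, 64.1 and 63.5 FPKM with vehicle. Rapsn, known for clustering acetylcholine receptors at the nerve-muscle junction, had 9.27, 8.8, 7.46 and 7.31 FPKM with NS102, against 75.4, 79.4, 83.4 and 83 FPKM with vehicle. Their log2 changes were -3.48 ± 0.075 and -3.15 ± 0.074 (limma adjusted p = 4.7e-11 and 6.6e-11), and -3.38 and -2.94 after length correction. The transcripts of Gp5 and Rapsn have 2197 and 1606 bases. Txnip, an arrestin-like protein responsive to glucose, was lower at 43.9 ± 4.74 FPKM with NS102 and 186 ± 14.4 FPKM with vehicle. Among the longest of the 5 length bins, where 18.8% of the genes were lower, Cx3cr1, the fractalkine receptor, was at 0.886 ± 0.241 FPKM with NS102 and 8.87 ± 0.475 FPKM with vehicle. Others in that bin were Cd33, an inhibitory receptor for sialic acid, at 3.45 ± 0.214 and 7.85 ± 0.463 FPKM, the sialyltransferase gene St6galnac3 at 2.02 ± 0.0372 and 5.33 ± 0.703 FPKM, and Ebpl at 8.38 ± 0.711 and 18.7 ± 1.29 FPKM. The bins use the longest annotated transcript, which need not be the one expressed. For Ebpl it has 10092 bases, and length correction moved the change of that gene from -1.07 to -1.42.

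Mitotic genes were near 0 FPKM with NS102. Birc5, survivin, had 0.0688, 0.324, 0.0693 and 0.212 FPKM with NS102, against 8.83, 11.3, 9.5 and 11.4 FPKM with vehicle. Ube2c, the ubiquitin-conjugating enzyme of the anaphase-promoting complex, had 0.146, 0.433, 0.333 and 0.188 FPKM with NS102, against 8.32, 11.1, 9.49 and 9.45 FPKM with vehicle. Cyclin B2, Ccnb2, was at most at 0.133 FPKM in any NS102 library and at 6.07 to 8.33 FPKM with vehicle. The transcripts of Birc5, Ube2c and Ccnb2 have 3334, 2191 and 1531 bases, that of Ccnb2 in the shortest of the 5 length bins. All 3 genes passed the filter only through the vehicle libraries. Their log2 changes were -3.27 ± 0.102, -3.05 ± 0.0986 and -2.92 ± 0.0932 (limma adjusted p of 3.9e-10 to 4.7e-10). Of 24 mitosis genes listed, 12 passed the filter, 11 of them only through the vehicle libraries, so that a count over these carries no weight, and the sum over all 24 is given instead. It was 5.28, 5.84, 6.54 and 6.77 FPKM with NS102, against 53, 65.6, 57.8 and 55.6 FPKM with vehicle. In these bulk libraries, fewer dividing cells and less message per dividing cell cannot be told apart. Of 17 DNA replication genes that passed through both groups, 1 rose and 12 fell, against 30.8% and 39.7% of all tested genes, with a median log2 change of -0.49. Rrm2, the small subunit of ribonucleotide reductase, was at 0.354 ± 0.0563 FPKM with NS102 and 5.49 ± 0.957 FPKM with vehicle, and thymidine kinase Tk1 at 0.0223 ± 0.0257 and 1.64 ± 0.21 FPKM, both having passed the filter only through the vehicle libraries.

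The promoters of Ccnb2 and Ube2c are printed because such genes are known to be driven in G2 and M phase through the cell cycle homology element TTTGAA and through CCAAT boxes, and because these 2 genes were among the largest decreases. Each run of 300 bases reaches across the annotated start, read in the direction of the gene from RefSeq on GRCm38.p6, at chr9:70421505-70421804 on the minus strand for Ccnb2 and chr2:164769679-164769978 on the plus strand for Ube2c. Capitals mark every match to TTTGAA or CCAAT on either strand.
Ccnb2: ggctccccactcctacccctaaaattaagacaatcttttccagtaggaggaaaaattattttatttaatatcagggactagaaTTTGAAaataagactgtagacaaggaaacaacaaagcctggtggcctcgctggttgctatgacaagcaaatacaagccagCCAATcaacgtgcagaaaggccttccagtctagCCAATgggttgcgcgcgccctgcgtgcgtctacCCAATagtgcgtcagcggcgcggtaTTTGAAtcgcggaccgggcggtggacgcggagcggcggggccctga
Ube2c: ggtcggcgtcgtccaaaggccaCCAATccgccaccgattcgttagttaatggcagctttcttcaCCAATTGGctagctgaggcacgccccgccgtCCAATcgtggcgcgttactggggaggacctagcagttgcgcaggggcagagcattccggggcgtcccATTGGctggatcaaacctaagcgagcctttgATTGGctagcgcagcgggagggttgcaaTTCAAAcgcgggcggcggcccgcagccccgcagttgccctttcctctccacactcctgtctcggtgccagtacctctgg

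The Ccnb2 window holds 2 matches to TTTGAA and 3 to CCAAT, and the Ube2c window 1 and 6, of which 2 overlap on opposite strands. Of the 24 mitosis genes, 20 had a promoter in the table, and 15 of these (75%) held TTTGAA and 17 (85%) CCAAT, against 18.1% and 37.9% of all 27025 promoters. Both motifs together were in 14 of the 20 (70%) and in 7.12% of all promoters. Among 22 promoters of DNA replication genes, 3 (13.6%) held TTTGAA and 13 (59.1%) CCAAT. A match describes the letters only, and binding was not measured.

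On the log2(FPKM + 1) scale, the largest decreases among the named genes were in replication-dependent H2A genes, with Hist1h2ao at 6.94 ± 1.5 FPKM with NS102 and 126 ± 12.9 FPKM with vehicle, Hist1h2ag at 3.48 ± 0.739 and 50.1 ± 6.98 FPKM, and Hist1h2ad at 1.27 ± 0.356 and 24.4 ± 3.25 FPKM. Their sequences are nearly identical, so the division of reads among copies is uncertain, and their messages normally end without a poly(A) tail. The symbol Hist1h2ao stands on 2 rows of the deposited data, and all values given for it are those of the first row. Hist1h2bc, an H2B gene, was at 69.1 ± 5.22 FPKM with NS102 and 46.2 ± 2.38 FPKM with vehicle. The variant H2afz fell to 328 ± 17.6 FPKM with NS102, against 590 ± 24.4 FPKM with vehicle. Hist1h2ao, Hist1h2ag and Hist1h2ad are not on the histone list, and their log2 changes after length correction were -3.34, -2.85 and -2.88. Of the 15 tested genes on that list, 2 rose and 8 fell as measured, against 30.8% and 39.7% of all tested genes. The median of the list was -0.18. After length correction 7 rose and 6 fell, with a median of 0.16, so the direction of this list turned with the correction.

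The metallothionein genes Mt1 and Mt2, which encode small proteins that bind zinc and copper, were higher, while Slc39a4 and Slc39a10, the other 2 tested genes of their list, encode zinc importers and fell, Slc39a10 having passed the filter only through the vehicle libraries. Mt2 had 113, 112, 98.8 and 107 FPKM with NS102, against 5.75, 5.4, 8.74 and 6.51 FPKM with vehicle, and Mt1 had 927, 906, 805 and 851 FPKM with NS102, against 243, 207, 212 and 255 FPKM with vehicle. Their log2 changes were 3.86 ± 0.11 and 1.93 ± 0.0749 (limma adjusted p = 2.5e-10 and 1.7e-09), and 4.50 and 2.30 after length correction. Their promoters are printed because both genes lie next to each other, rose together and are known targets of the metal-responsive factor MTF1, whose element was searched as TGCGCNC and TGCACNC on either strand and is shown in capitals. The RefSeq windows on GRCm38.p6 are chr8:94172368-94172667 for Mt2 and chr8:94178839-94179138 for Mt1, both on the plus strand.
Mt2: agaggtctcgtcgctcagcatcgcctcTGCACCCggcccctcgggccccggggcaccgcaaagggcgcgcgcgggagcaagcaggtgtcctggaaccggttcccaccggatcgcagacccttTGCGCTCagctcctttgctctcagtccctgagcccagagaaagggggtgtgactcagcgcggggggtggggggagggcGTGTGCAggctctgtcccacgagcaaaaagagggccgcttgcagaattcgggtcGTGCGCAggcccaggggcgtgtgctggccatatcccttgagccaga
Mt1: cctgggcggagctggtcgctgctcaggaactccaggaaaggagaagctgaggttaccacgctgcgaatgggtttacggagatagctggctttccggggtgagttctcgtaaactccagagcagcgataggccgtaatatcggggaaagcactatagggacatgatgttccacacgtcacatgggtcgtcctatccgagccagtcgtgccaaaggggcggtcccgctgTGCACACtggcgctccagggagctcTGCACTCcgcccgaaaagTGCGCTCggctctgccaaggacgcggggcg

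The Mt2 window holds 2 matches to each form and the Mt1 window 1 to TGCGCNC and 2 to TGCACNC. Of the 7 genes on the metallothionein and zinc transport list, 6 had a promoter sequence. Of these, 3 (50%) held TGCGCNC and 4 (66.7%) TGCACNC, against 15.5% and 12.4% of all 27025 promoters. Slc30a1 held both forms and Mt3 held TGCACNC, and neither gene passed the filter. The vehicle libraries already carried Mt1 message at 229 ± 23.5 FPKM.

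Genes of redox defence and lipid synthesis were mostly higher. Of 25 tested NRF2 and antioxidant genes, 18 rose and 6 fell, against 30.8% and 39.7% of all tested genes, with a median log2 change of 0.48. Nqo1, a quinone reductase that NRF2 activates, had 28.4, 26.7, 28.9 and 27.3 FPKM with NS102, against 8.48, 10.6, 10.7 and 8.32 FPKM with vehicle. Nfe2l2, which encodes NRF2, was at 36.5 ± 3.95 FPKM with NS102 and 17.9 ± 1.72 FPKM with vehicle, and malic enzyme Me1 at 5.12 ± 0.316 and 1.85 ± 0.143 FPKM. Of 22 tested sterol synthesis genes, 19 rose and 2 fell (median 0.69, and 0.73 after length correction), and of 10 fatty acid synthesis genes that passed through both groups, 9 rose and none fell (median 1.00). Fdps, the farnesyl diphosphate synthase gene, had 51.1, 47.8, 47.6 and 52.8 FPKM with NS102, against 18.9, 17.3, 17.7 and 17.2 FPKM with vehicle. Also higher were the squalene epoxidase gene Sqle at 32.6 ± 1.41 FPKM with NS102 and 13.4 ± 1.53 FPKM with vehicle, the desaturase gene Scd2 at 36.4 ± 1.65 and 9.01 ± 1.14 FPKM, and Srebf1, a transcription factor of lipid synthesis, at 17.7 ± 1.31 and 6.74 ± 0.676 FPKM. These 4 transcripts have lengths between 1382 and 5455 bases, and all 4 remained called after length correction at 1.13 to 1.71.

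The stress and amino acid lists are set beside the 30.8% of all tested genes that rose and the 39.7% that fell. Of 15 genes of the ATF4 response that passed through both groups, 4 rose and 7 fell (median -0.08). Atf4 itself, the factor that drives them, had 10.4, 9.94, 15.2 and 14.9 FPKM with NS102, against 3.94, 3.96, 3.79 and 3.66 FPKM with vehicle, while its known target Psat1, an enzyme of serine synthesis, was lower at 1.01 ± 0.132 and 3.02 ± 0.193 FPKM. Of 20 tested aminoacyl-tRNA synthetase genes, 5 rose and 5 fell (median 0.04). Eprs, the synthetase for glutamate and proline, had 4.54, 4.59, 7.18 and 7.17 FPKM with NS102, against 2.28, 1.12, 1.7 and 1.86 FPKM with vehicle, for a transcript of 4906 bases. Dars, the synthetase for aspartate, with 2175 bases, was at 16.6 ± 0.941 FPKM with NS102 and 28.8 ± 2.27 FPKM with vehicle. Of 22 tested chaperones of the endoplasmic reticulum, 6 rose and 9 fell (median -0.04), and of 11 tested heat shock genes, 5 rose and 3 fell (median 0.05). Of 19 tested p53 targets, 5 rose and 10 fell (median -0.21), and of 27 lysosomal genes, 12 rose and 10 fell (median 0.08).

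Genes of ribosomal proteins, the respiratory chain and the proteasome were mostly lower, where 39.7% of all tested genes fell and 30.8% rose. All 35 cytosolic ribosomal protein genes on the list fell, with a median log2 change of -1.14 as measured, and all 35 remained lower after length correction at a median of -0.74. Rpl32 had 696, 758, 578 and 663 FPKM with NS102, against 1817, 1995, 2101 and 1951 FPKM with vehicle. Rps18 was at 537 ± 64 FPKM with NS102 and 1525 ± 99.8 FPKM with vehicle, and Rplp0 at 261 ± 29.8 and 683 ± 29 FPKM. Many ribosomal protein genes have processed copies in the genome, so their counts are uncertain where reads match several places. Of 30 subunit genes of the respiratory chain and ATP synthase, 29 fell as measured (median -0.70) and 24 after length correction (median -0.33). The ATP synthase subunit Atp5a1, with 2674 bases, was at 93.6 ± 4.4 FPKM with NS102 and 168 ± 7.51 FPKM with vehicle, a log2 change of -0.83 that length correction left at -0.79. Ndufb9 of complex I, with 704 bases, was at 113 ± 6.3 and 220 ± 15.7 FPKM, a change of -0.95 that length correction brought to -0.42. Of 27 proteasome subunit genes, 20 fell and 1 rose as measured (median -0.46), and 15 fell and 4 rose after correction (median -0.19). Psma3, with 2846 bases, kept its change at -0.71 after correction, and Psmb6, with 798 bases, was reduced to -0.24. Of 7 tested small nucleolar RNA host genes, 6 fell as measured (median -0.77) and 3 after correction (median -0.14).

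**Figure D5:**
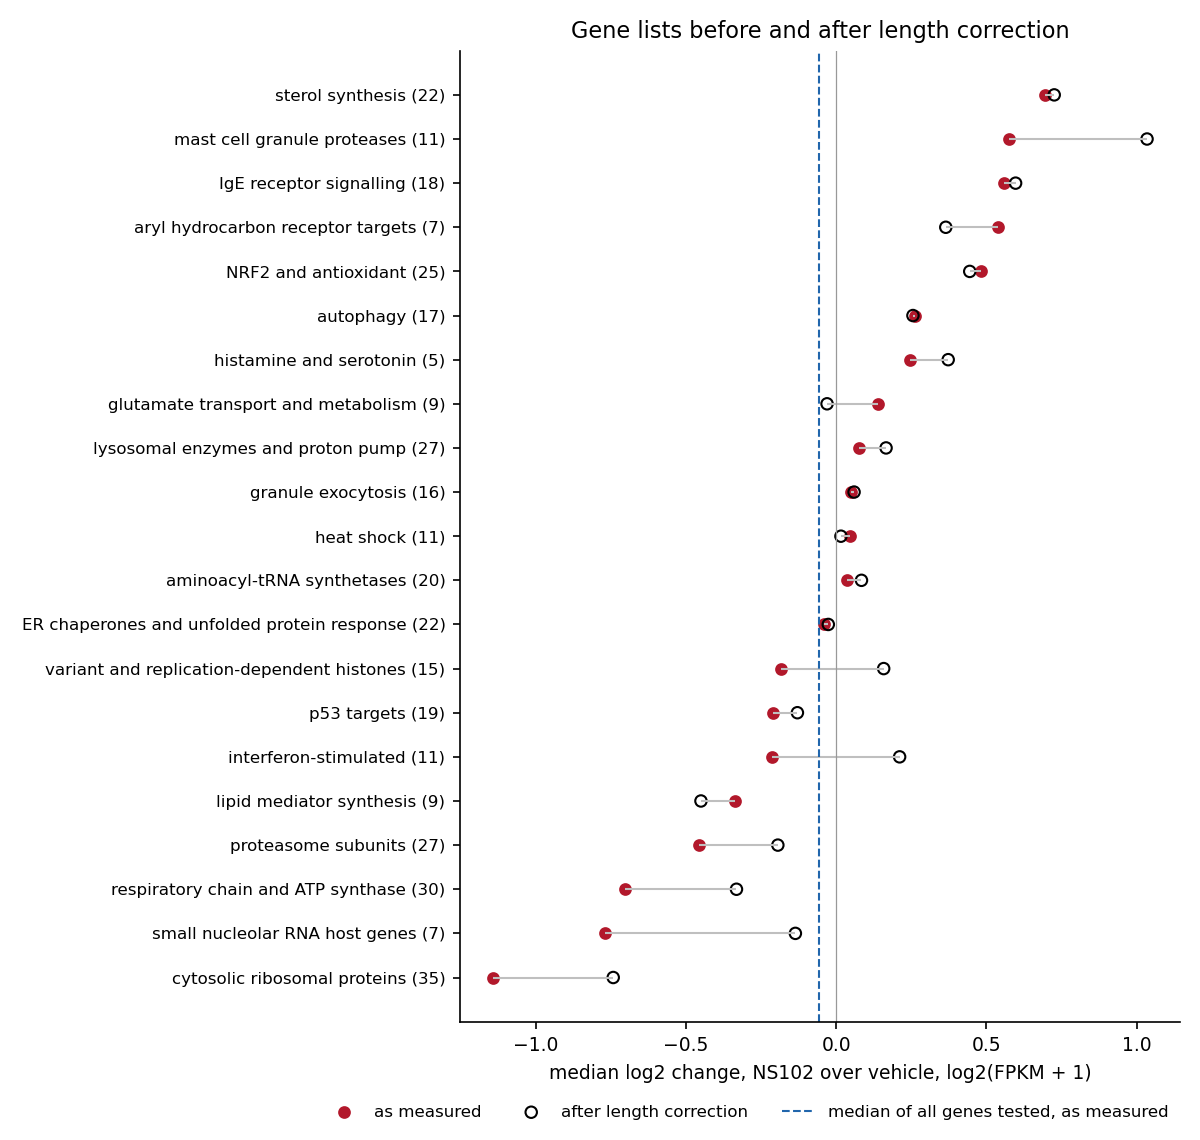
Median log2 change, NS102 over vehicle (x), of each gene list with at least 5 tested genes, all of which passed the filter through both groups (y, number tested in brackets), as measured (red) and after length correction (open circles), with the median of all tested genes as a dashed line. The ribosomal, respiratory chain, proteasome and small nucleolar RNA host lists move towards 0 with the correction, and the histone, interferon and glutamate transport lists cross it.

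Several genes with long transcripts were higher, genes of the cytoskeleton and of chromatin among them, and in some of them the pairs of NS102 libraries differed. Tln1, talin, which links integrins to actin, had 10.4, 11.3, 26.4 and 25.9 FPKM with NS102, against 1.29, 0.89, 0.88 and 1.11 FPKM with vehicle, for a transcript of 8393 bases. Myh9, the heavy chain of nonmuscle myosin, had 3.64, 3.64, 9.07 and 10.3 FPKM with NS102, against 0.264, 0.324, 0.187 and 0.397 FPKM with vehicle, so that it passed the filter only through the NS102 libraries. Neat1, the long noncoding RNA of paraspeckles, had 9.43, 7.97, 48.1 and 75.2 FPKM with NS102, against 1.75, 1.6, 1.48 and 1.91 FPKM with vehicle. The Neat1 locus in the files covers only the start of that RNA, while its length here is that of the longest transcript. In all 3 genes, libraries 3 and 4 were well above libraries 1 and 2, and the lower pair was still above every vehicle library. Log2 changes were 3.14 ± 0.256, 2.45 ± 0.256 and 3.18 ± 0.554 (limma adjusted p = 6.0e-07, 4.2e-06 and 2.5e-04), and 2.83, 2.16 and 2.67 after length correction. The scaffold gene Iqgap1 had 38.6, 38.7, 60.6 and 55.4 FPKM with NS102, against 9.13, 5.37, 5.94 and 6.87 FPKM with vehicle. Flna, filamin A, differed less between the pairs, at 9.21 ± 1.07 FPKM with NS102 and 2.28 ± 0.232 FPKM with vehicle, and the short Lgals3, galectin 3, at 1419 bases, was also higher at 304 ± 7.09 and 135 ± 2.43 FPKM. Of 20 cytoskeleton and adhesion genes that passed the filter through both groups, 13 rose and 3 fell, against 30.8% and 39.7% of all tested genes.

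Among further long or middle-length genes, Emilin2, an extracellular matrix glycoprotein, had 114, 109, 155 and 151 FPKM with NS102, against 21.1, 14.6, 15.9 and 18.2 FPKM with vehicle. Map7d1, a microtubule-binding protein, had 14.5, 13.2, 22.6 and 23.3 FPKM with NS102, against 2.11, 1.81, 1.62 and 2.55 FPKM with vehicle, and the actin nucleator Cobl 10.7, 11, 18 and 18.1 FPKM, against 2.4, 1.68, 2.02 and 2.32 FPKM. In these 3 genes, too, NS102 libraries 3 and 4 were above libraries 1 and 2, and all 4 were above every vehicle library. Anpep, aminopeptidase N, was at 81.3 ± 15.4 FPKM with NS102 and 12.2 ± 2.45 FPKM with vehicle, Fgfr1, a fibroblast growth factor receptor, at 14 ± 1.46 and 2.07 ± 0.219 FPKM, and Basp1, a membrane-attached protein with a transcript of 1855 bases, at 90 ± 7.73 and 15.3 ± 3.93 FPKM. Of 27 chromatin and splicing genes with long transcripts in the table, 13 passed the filter, 7 of them only through the NS102 libraries. The sum over all 27 was 46.1, 49.7, 79.7 and 78.3 FPKM with NS102, against 17.6, 15.3, 15.8 and 16.6 FPKM with vehicle. The remodelling ATPase gene Smarca4 had 2.8, 2.87, 5.82 and 5.63 FPKM with NS102, against 0.58, 0.465, 0.407 and 0.607 FPKM with vehicle. The splicing protein gene Srrm2 had 2.72, 2.66, 5.79 and 4.89 FPKM with NS102, against 0.52, 0.381, 0.338 and 0.328 FPKM with vehicle. Both passed the filter only through the NS102 libraries, of which libraries 3 and 4 were the higher pair.

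Glutamate treatment of such cells, which differed in time and medium as well, showed a length trend of the opposite sign, seen mainly in the shortest genes. In the 10 length bins above, the median change with glutamate was -0.10 and -0.25 in the 2 shortest. It was between -0.39 and -0.32 in every longer bin, without a steady order. Over 8825 genes that passed the filter in the 16 libraries, the slope on length was -0.94 ± 0.0223 with glutamate and -0.87 ± 0.0317 with its vehicle, a difference of -0.06 (exact permutation test, two-sided, p = 0.0286, the smallest possible), while NS102 minus vehicle over the same genes was 0.25. The difference between the 2 differences was 0.31 (exact permutation test within each contrast, two-sided, p = 4.1e-04, the smallest possible). This test relabels libraries within both contrasts, so it asks about no effect in either, not about equal effects. After quantile normalization the difference was 0.19, against 0.18 for NS102 minus vehicle over the 8308 genes. Gene by gene, the change with NS102 differed from the change with glutamate in 6750 of 8896 genes (75.9%; limma, Benjamini-Hochberg adjusted p under 0.05), 4674 higher (52.5%) and 2076 lower (23.3%). This split hangs on the scaling, since the median difference over all genes was 0.29. With each library centred on its median, 2716 were higher and 4096 lower, after quantile normalization 3192 and 3521, and after length correction 3229 and 3465.

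Among the genes with the largest differences between the treatments, Mt2 changed by 3.86 with NS102 and by -0.62 with glutamate, a difference of 4.48 ± 0.17 (SE; limma adjusted p = 1.6e-13). Ccl1 changed by 4.67 with NS102 and by 0.42 with glutamate, Penk by 4.34 and 0.16, Tln1 by 3.14 and -1.07, and Iqgap1 by 2.65 and -1.63. The H2A genes went the opposite way in the 2 treatments, with Hist1h2ao at -4.01 with NS102 and 2.17 with glutamate (difference -6.18 ± 0.14, adjusted p = 1.2e-16), Hist1h2ag at -3.51 and 2.11, and Hist1h2ad at -3.49 and 2.20. Kit changed by 0.70 with NS102 and by -1.05 with glutamate, and Mrgprb2 by 0.59 and -0.91. Me1 changed by about as much with both, 1.10 and 1.08, a difference of 0.02 ± 0.11 (adjusted p = 0.86).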

How the data were processed

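RNA sequencing libraries of cultured peritoneal mast cells were compared, 4 with NS102 and 4 with vehicle, both 48 h. The deposited table gives FPKM per gene, which the authors made with STAR and Cufflinks on build mm9 per the submitters' processing notes, versions not given in the sources used here. The header names no unit, and the values behave as FPKM. Counts and depth are unknown, so no counting interval is given, and the number of libraries limits the precision. For genes under 0.1 FPKM, 57% to 67.7% of the ratios between replicates came within 0.03 (log2) of a ratio of whole numbers no larger than 6, and 27.1% to 27.8% over all shifts. The 24 columns of other samples were not used.

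Values were taken as log2(FPKM + 1). Genes reaching 1 FPKM in 4 or more of the 8 libraries (of 16 for the difference from glutamate) went into limma 3.58.1 under R 4.3.3 (moderated test with mean-variance trend, two-sided, Benjamini-Hochberg, threshold 0.05), without further scaling. Transcript lengths are those of the longest transcript in GENCODE vM21 basic annotation, matched by symbol (22068 of 23812 rows) or synonym (1323), and were used for length, exons and GC content only, since that annotation is not on mm9. For length correction, the deviation of each library from the mean of each gene over the fitted libraries was taken. A lowess curve (span 0.3) of these deviations on log2 length was subtracted from that library. Slopes were compared by exact permutation over libraries. The procedure was tested on simulated data with planted changes and a planted length trend. No 2 libraries held identical values. Groups were compared without pairing. Alternatives covered the pseudocount, filter, scaling, replicate block, left-out libraries and length measure.

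Named genes are a selection from those given by a rule: the 15 with the largest change in each direction whose groups did not overlap and of which one averaged 5 FPKM or more, up to 4 per list in order of p, up to 6 per direction in the shortest and longest of 5 length bins, 5 per direction for the difference from glutamate, and a set of receptor, kainate and granule genes. The genes and lists were chosen with earlier results of these data known. A few genes are not reported here. Promoters come from RefSeq on GRCm38.p6.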

Additional observations from a re-analysis of the deposited data

Results flagged for a closer look

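In 10 of 176 groups of 4 libraries, over the genes named above, the slopes and the summed FPKM, 1 library lay so far from the other 3 that its gap to the nearest took up nearly the whole range (Dixon's test). Chance gives about 1 in 20 such groups, so this number is near what chance gives, and no cause was tested.

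With NS102, Penk was lowest in library 3 at 34.8 FPKM, against 43.5 to 44.7 FPKM in the others, Me1 was highest in library 3 at 5.6 FPKM, against 4.95 to 4.98 FPKM, and Egr2 was lowest in library 1 at 1.76 FPKM, against 2.12 to 2.19 FPKM.

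With vehicle, library 1 was highest for Kit at 304 FPKM, against 236 to 245 FPKM, for Inpp5d at 23 FPKM, against 15.9 to 16.9 FPKM, for Flna at 2.63 FPKM, against 2.13 to 2.2 FPKM, and for Junb at 26.2 FPKM, against 22.2 to 22.8 FPKM. The same library had the highest slope on transcript length in its group, -0.99 against -1.05 in each of the others, and Kit, Inpp5d and Flna have transcripts of 5241, 4937 and 8456 bases. Vehicle library 3 was lowest for Ccl1 at 5.71 FPKM, against 10.1 to 10.8 FPKM, and vehicle library 4 was highest for Ltc4s at 39 FPKM, against 35.4 to 36 FPKM. None of these libraries reached the values of the other group.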

How the results depend on the processing

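The slope difference and its difference from glutamate kept their direction under every setting tried, and the 2 counts of called genes stayed within 1.5 times except under a filter of 5 FPKM, which tests fewer genes (3757 of 4929 called for NS102, 4188 of 5366 for the difference from glutamate). The split of the genes that differed from glutamate, 4674 higher and 2076 lower, turned with median centring (2716 and 4096), quantile normalization (3192 and 3521) and length correction (3229 and 3465). Leaving out each library in turn gave 5303 to 5672 and 6508 to 6721 calls, a slope difference of 0.21 to 0.26 and a difference from glutamate of 0.29 to 0.32. Same-numbered libraries deviated together in no steady way (r of -0.247, 0.281, -0.183 and 0.107), so the numbers give no pairing. With the replicate number as a block, 5642 and 6641 genes were called, and the slope difference of 0.25 had p = 0.125 by the exact permutation test, the smallest that 4 pairs allow. 1 of the 4 NS102 libraries correlated best with its own number. The removal of NS102 libraries 1 and 2 (0.27) or 3 and 4 (0.19), chosen after seeing the data, took the exact permutation test of the slope to its smallest possible p of 0.0667. The slope difference was 0.15 without a filter and 0.32 with a pseudocount of 0.1, and the difference from glutamate 0.17 and 0.44. Other lengths, also added later, gave 0.26 (median transcript) and 0.27 (coding length).

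Of 85 named genes that passed the test, 83 kept their direction and call under each of the 23 settings in which they passed the filter. Genes that passed through a single group drop out when a library of that group is left out, so those settings did not test them. Tpsb2 lost its call in 9 settings or left-out libraries and Fcer1a after length correction. Cpa3, not called, turned to 0.0919 with length correction, with or without the block, and to 0.0452 with the median transcript length, where the cause was not tested. Depth is unknown, so values under 1 FPKM are the least certain.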
